A study of Sus scrofa with 4 samples.

Results

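The genes described here are the 2 ligands and 3 receptors of the KIT and GDNF signalling pairs: KITLG with its receptor KIT, and GDNF with its co-receptor GFRA1 and the signalling receptor RET. They were taken by gene symbol, and each of the 5 symbols matched 1 of the 31908 features in the count tables. On the pig build Sscrofa11.1, the RefSeq entries with these symbols place KIT (ENSSSCG00000008842) on chromosome 8 from 41402334 to 41492306, and KITLG (ENSSSCG00000035495) on chromosome 5 from 94016992 to 94110219. GDNF (ENSSSCG00000038727) lies on chromosome 16 from 22936602 to 22965929. GFRA1 (ENSSSCG00000010655) and RET (ENSSSCG00000010199) both lie on chromosome 14, from 126273558 to 126499957 and from 61305818 to 61361416. The counts are per whole gene, so isoforms, including the membrane-bound and secreted forms of KITLG, were not told apart.

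KITLG, or stem cell factor, binds and activates KIT, a receptor tyrosine kinase of germ cells, mast cells and, in several mammals, steroid-producing cells of the testis. In mice, Sertoli cells make KITLG, and spermatogonia that begin to differentiate need KIT to survive and divide. GDNF is held by GFRA1 at the cell surface and then activates RET. In mice, GDNF from Sertoli cells and peritubular myoid cells maintains the undifferentiated spermatogonia, which are known for GFRA1 and RET, whereas differentiating spermatogonia are known for KIT.

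The study followed the cells of the pig testis, with the question of how the somatic niche cells develop, in pigs aged 7, 30, 60 and 90 days. For each age there was 1 droplet-based 3′ single-cell RNA library of dissociated testis cells, and the labels give no breed, treatment or number of animals. Age and library therefore cannot be told apart, no difference below has a replicate check, and no test of age was possible. Levels are CPM, the unique molecular identifiers (UMIs) of a gene as a share of all UMIs summed over the cells of 1 class in 1 library, on a scale where 10000 CPM is 1% of the UMIs. Every interval is an exact 95% interval that covers counting error only, and "higher" or "lower" gives the direction of a ratio, not a tested change.

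The libraries held 45717373 to 96133720 UMIs, and 50766 cells were kept in all. Cells were put into classes by marker genes, with the 5 genes described here left out of both the clustering and the marker lists. Spermatogonia-like cells had at least 1 UMI, summed over the class, of 11 or 12 of the 12 measured spermatogonia markers at each age. Sertoli-like cells had at least 1 UMI of 11 of 11 Sertoli markers. The classes were named from these same markers, and 1 UMI is a low bar, so these counts do not check the names. Some classes were less secure. The myoid-like class at 30 and 60 days was 1 cluster with more stromal marker RNA (11400 and 16200 CPM) than myoid marker RNA (4800 and 4530 CPM), against 7820 and 21900 CPM at 90 days. At 60 days 40.7% of the cells stayed unnamed, mostly in 1 shallow cluster, and 105 of the 173 Leydig-like cells came from a cluster that also carried Sertoli markers. None of the 10 leading genes of that cluster was a Sertoli marker, and its median depth was 1732 UMIs. Among the kept cells, 313 barcodes occurred in 2 libraries. Spermatid marker RNA reached 1750 CPM in Sertoli-like cells at 90 days, against 11.4 to 19.3 CPM in the younger libraries, so spermatid RNA was found in cells of other classes of that library, and its route there was not tested.

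**Figure D1:**
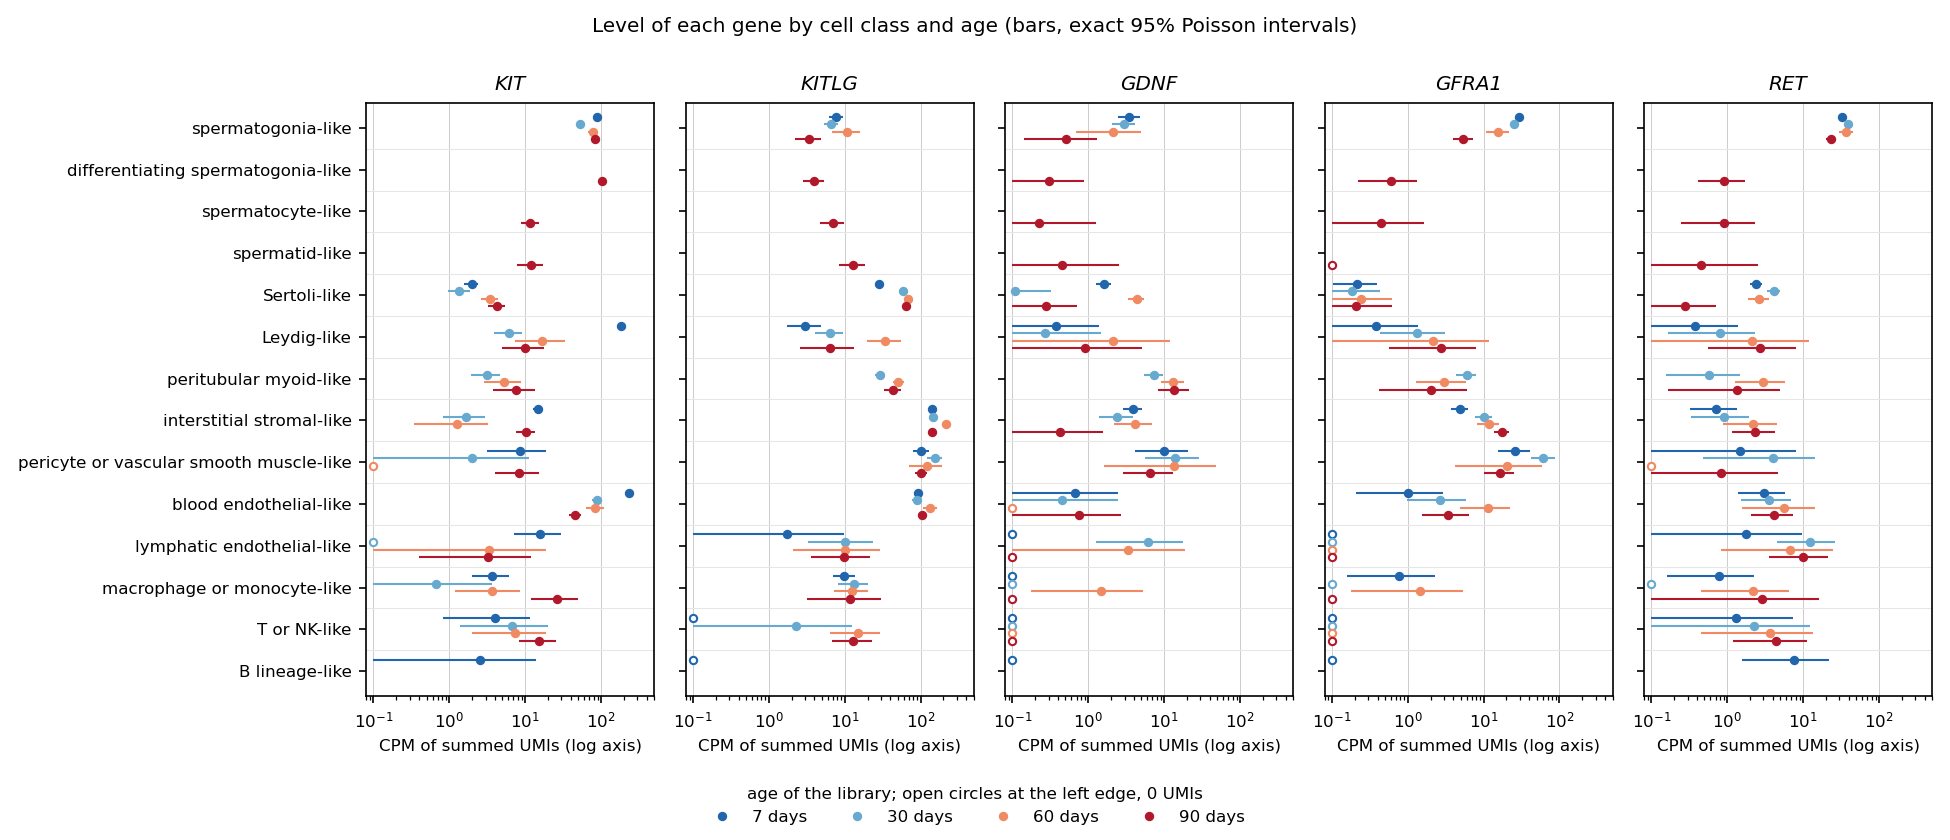
CPM (log axis) of the 5 genes in each cell class with at least 50 cells, coloured by age, with exact 95% Poisson intervals; open circles at the left edge are classes with 0 UMIs. KITLG is high in stromal, pericyte and endothelial classes and in Sertoli-like cells, GDNF is low everywhere and highest in myoid and pericyte classes, and RET is highest in spermatogonia-like cells at every age.

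KITLG was a gene of the somatic cells at every age, and its level in Sertoli-like cells, the nurse cells of the germ line, was higher in the 3 older libraries. In Sertoli-like cells KITLG stood at 28.6 CPM at 7 days (1321 UMIs, 27 to 30.1), 58.9 CPM at 30 days (56.0 to 61.8), 68.1 CPM at 60 days (64.1 to 72.2) and 64.5 CPM at 90 days (922 UMIs, 60.4 to 68.8). The 7-day interval lies below the other 3, and the 60-day and 90-day intervals overlap. The level was 2.06-fold higher at 30 than at 7 days (1.92 to 2.22) and 2.26-fold higher at 90 than at 7 days (2.07 to 2.46), a log2 ratio of 1.18 (1.05 to 1.30). The step from 60 to 90 days had a log2 ratio of -0.08 (-0.20 to 0.05), within counting error. Scaling with TMM factors lowered the ratio of 90 to 7 days to 0.75 on the log2 scale.

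Sertoli-like cells were not the class with the highest KITLG. Interstitial stromal-like cells, the connective tissue cells between the tubules, held 140 CPM at 7 days (133 to 146), 147 CPM at 30 days (138 to 157), 218 CPM at 60 days (202 to 235) and 143 CPM at 90 days (132 to 154). The 60-day value stands above the other 3, whose intervals overlap. Relative to Sertoli-like cells of the same library, the stromal-like level of KITLG was 4.90-fold higher at 7 days (4.56 to 5.26), 2.5-fold at 30 days (2.31 to 2.71), 3.20-fold at 60 days (2.91 to 3.52) and 2.22-fold at 90 days (2.0 to 2.45). The distance between the classes was thus largest at 7 days. The 7-day value rests on the clustering: its log2 ratio of 2.29 became 1.14 with finer clusters (resolution 2) and 1.01 when the libraries were clustered separately, and under these settings the stromal-like ratio of 90 to 7 days became 1.17 and 1.32 in place of 0.03.

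Vessel-associated classes also carried KITLG. Blood endothelial-like cells held 91.9 CPM at 7 days, 88.7 CPM at 30 days, 133 CPM at 60 days and 106 CPM at 90 days, and the ratio of 90 to 7 days was within counting error (log2 0.20, -0.05 to 0.45). Pericyte or vascular smooth muscle-like cells, the contractile cells around vessels, held 103, 155, 120 and 103 CPM at the 4 ages. Pericyte-like and endothelial-like cells did not differ beyond counting error at 7 days (1.12-fold, 0.848 to 1.46), 60 days (0.906, 0.515 to 1.51) or 90 days (0.977, 0.785 to 1.21), while at 30 days stromal-like and pericyte-like cells did not differ (0.952, 0.755 to 1.21). Myoid-like cells, the contractile cells of the tubule wall, lay below Sertoli-like cells with 29.0, 51.1 and 43.5 CPM at 30, 60 and 90 days.

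The remaining classes had little KITLG. Leydig-like cells, the steroid-producing cells, held 3.03, 6.35, 33.9 and 6.38 CPM at 7, 30, 60 and 90 days. The high 60-day value came from the cluster that also carried Sertoli markers (70.0 CPM, 14 UMIs), and the 68 other Leydig-like cells of that library held 7.34 CPM (2 UMIs, 0.889 to 26.5). Spermatogonia-like cells held 7.70, 6.64, 10.7 and 3.35 CPM, which is 2.30 times lower at 90 than at 7 days (1.46 to 3.73). Lymphatic endothelial-like cells stood at 1.74 to 10.2 CPM and macrophage or monocyte-like cells at 9.81 to 13.2 CPM. T or NK-like cells had 0, 1, 8 and 12 KITLG UMIs, the largest corresponding to 14.8 CPM at 60 days.

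By origin of the molecules, 49.7% of the 3596 KITLG UMIs at 7 days came from stromal-like cells and 36.7% from Sertoli-like cells. At 30 days the order was the other way round, with 49.9% of 3244 UMIs from Sertoli-like and 30.3% from stromal-like cells. Sertoli-like cells gave 41.6% and 41.0% at 60 and 90 days, stromal-like cells 25.9% and 29.8%, and endothelial-like cells 12.5% at 90 days. These shares depend on how many cells of a class were captured: Sertoli-like cells were 52.5% of the kept cells at 7 days and 18.9% at 90 days.

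**Figure D2:**
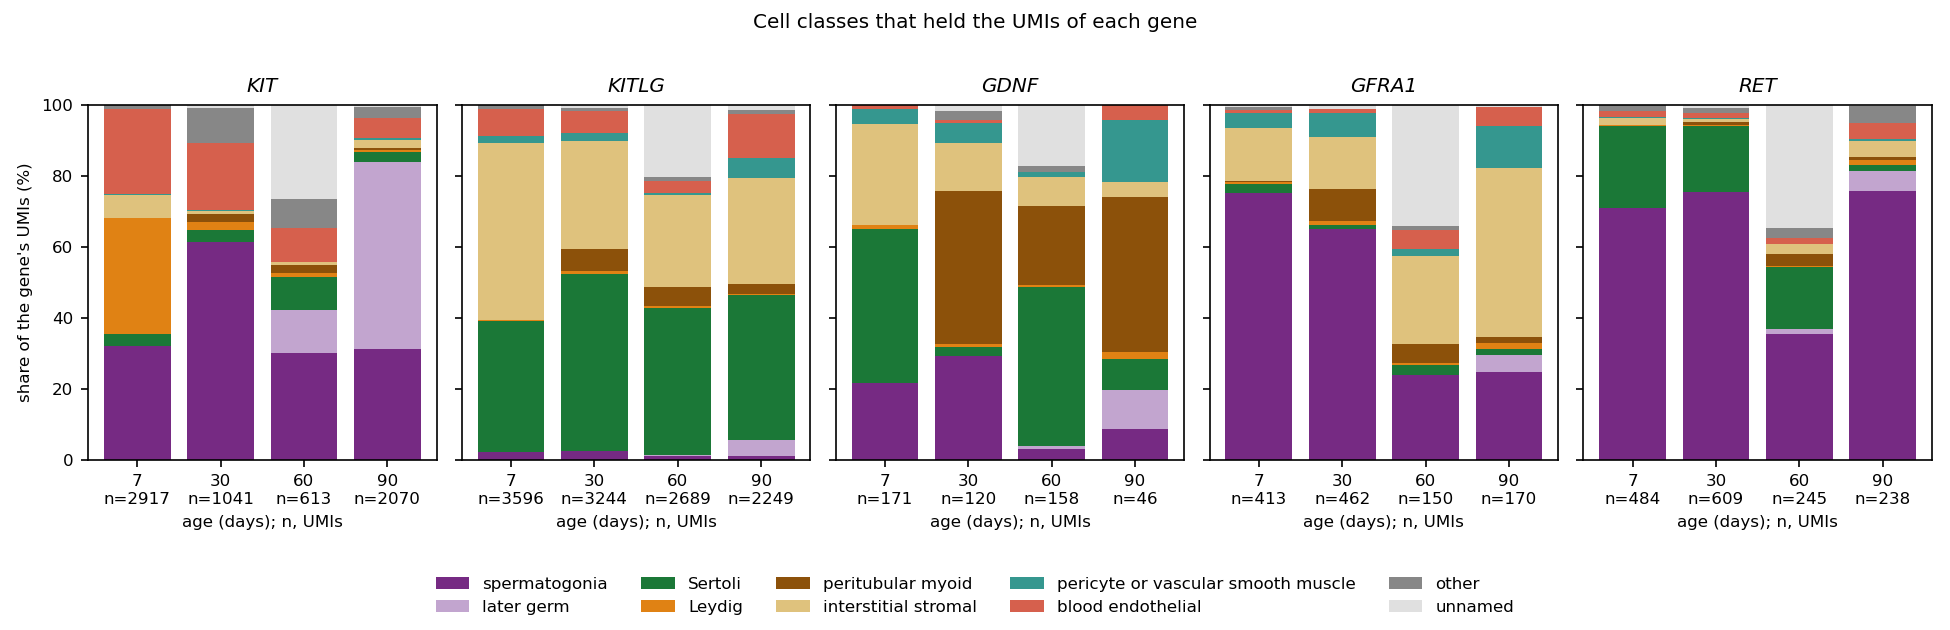
Share of each gene's UMIs (percent) that came from each cell class at 7, 30, 60 and 90 days, with the number of UMIs under each bar. Stromal and Sertoli-like cells give most KITLG, spermatogonia-like cells give most RET except at 60 days, and Leydig-like cells give 32.7% of KIT at 7 days.

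GDNF was a low-count gene, with 171, 120, 158 and 46 UMIs in the 4 libraries, and the order of the classes was not the same at each age. In Sertoli-like cells it stood at 1.60 CPM at 7 days (74 UMIs in 63 of 6860 cells, 1.26 to 2.01), 0.109 CPM at 30 days (3 UMIs, 0.0225 to 0.319), 4.32 CPM at 60 days (71 UMIs in 66 of 2865 cells, 3.38 to 5.45) and 0.280 CPM at 90 days (4 UMIs, 0.0763 to 0.717). The 4 ages alternate between a higher and a lower level, and neither high interval overlaps a low one. The ratio of 30 to 7 days was 14.7 times lower (4.83 to 72.8), that of 60 to 30 days 39.6-fold higher (13 to 197) and that of 90 to 60 days 15.4 times lower (5.77 to 58.2). At 90 days GDNF was 5.71 times lower than at 7 days, a log2 ratio of -2.51 (-4.43 to -1.10).

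At 60 days, 70 of the 71 Sertoli-like GDNF UMIs lay in 1 cluster of 2482 cells at 4.81 CPM, in which ATF3, CCN1, EGR2 and EGR4, immediate early and stress response genes, were among the leading genes. The part of that state in the GDNF level was not tested. The unnamed cells of the same library held 3.31 CPM (27 UMIs, 2.18 to 4.82). Macrophage or monocyte-like cells, which should lack GDNF, had 2 GDNF UMIs at 60 days and 0 UMIs at the other ages. T or NK-like cells had 0 UMIs in every library, where 3 counts would be 3.94, 6.74, 5.56 and 3.26 CPM.

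By point values, GDNF was highest in pericyte-like cells at 7 days and in the pericyte-like and myoid-like classes at 30, 60 and 90 days. The myoid-like class at 30 and 60 days was the cluster rich in stromal markers, none of whose 10 leading genes was a myoid marker. Myoid-like cells held 7.37 CPM at 30 days (52 UMIs, 5.50 to 9.66), 13 CPM at 60 days (9.03 to 18) and 13.6 CPM at 90 days (20 UMIs, 8.31 to 21.0). Only 17 such cells were found at 7 days, with 0 GDNF UMIs. Pericyte-like cells held 10.1, 13.9, 13.4 and 6.60 CPM, each from 2 to 8 UMIs. These classes did not differ beyond counting error at 30, 60 or 90 days, the last with a myoid to pericyte ratio of 2.06 (0.870 to 5.41). At 90 days GDNF in myoid-like cells was 48.6-fold that of Sertoli-like cells (16.3 to 196), and at 7 days the pericyte-like level was 6.33-fold that of Sertoli-like cells (2.46 to 13.7).

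Stromal-like cells held 3.83, 2.40, 4.07 and 0.427 CPM of GDNF, so that the 90-day level (2 UMIs) was 8.97 times lower than at 7 days (2.35 to 76.1). At 7 days 17 myoid-like cells were named beside 3506 stromal-like cells, against 649 and 2047 at 90 days. The stromal-like classes of these 2 libraries may therefore not hold the same cells, which was not tested. This limit applies to every stromal-like ratio of 90 to 7 days. Spermatogonia-like cells also had GDNF UMIs, with 3.48 CPM at 7 days (37 UMIs in 34 of 539 cells), 2.94 CPM at 30 days (35 UMIs in 35 of 981 cells), 2.13 CPM at 60 days (5 UMIs) and 0.515 CPM at 90 days (4 UMIs). The first 2 values stand above the last, and GDNF was 6.75 times lower at 90 than at 7 days (2.42 to 26.1). The germ cell level was 2.17-fold that of Sertoli-like cells at 7 days (1.42 to 3.27) and 27-fold at 30 days (8.51 to 137), when Sertoli-like cells had 3 UMIs. Median depths were 18206 and 10766 UMIs in the spermatogonia-like cells of these libraries and 5609 and 3724 UMIs in the Sertoli-like cells, and doublets of a germ cell with a GDNF-bearing cell were not tested as a source. The class included 37 cells at 7 days and 15 at 30 days from subclusters with Sertoli markers (INHA, AMH) among their leading genes, and these held 1 and 0 of the GDNF UMIs. Without them GDNF stood at 3.69 and 3.03 CPM. Leydig-like cells had 1 or 2 GDNF UMIs per library and blood endothelial-like cells 0 to 2.

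Of the GDNF UMIs, Sertoli-like cells gave 43.3%, 2.5%, 44.9% and 8.70% at the 4 ages. Myoid-like cells gave 43.3%, 22.2% and 43.5% at 30, 60 and 90 days. The plot of UMI sources shows this exchange, with spermatogonia-like cells holding 21.6% and 29.2% of GDNF UMIs at 7 and 30 days.

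KIT, the receptor of KITLG, had a wide distribution, with germ cells, Leydig-like cells, blood endothelial-like cells and mast-like cells at high levels at 1 age or more. In spermatogonia-like cells KIT stood at 88.2 CPM at 7 days (939 UMIs, 82.7 to 94), 53.6 CPM at 30 days (49.6 to 58.0), 78.6 CPM at 60 days (67.6 to 90.8) and 83.6 CPM at 90 days (77.3 to 90.3). The 30-day library was the low one, 1.64 times below 7 days (1.49 to 1.82), and the other 3 intervals overlap. The ratio of 90 to 7 days had a log2 value of -0.08 (-0.22 to 0.07), within counting error. It depended on the cells and settings used, from -1.42 in cells without a UMI of the division genes TOP2A and CDK1 to 0.22 with TMM factors. Cells without such a UMI held 62.3 CPM of KIT at 7 days and 23.2 CPM at 90 days.

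In Leydig-like cells KIT was high in the 7-day library. The level was 181 CPM at 7 days (955 UMIs in 350 of 478 cells, 170 to 193), 6.09 CPM at 30 days (23 UMIs, 3.86 to 9.13), 16.9 CPM at 60 days (8 UMIs, 7.31 to 33.4) and 10.0 CPM at 90 days (11 UMIs, 5.01 to 17.9). No later interval comes near the 7-day one, and the ratio of 30 to 7 days was 29.7 times lower (19.7 to 47.1). T or NK-like cells, in which KIT was at or near 3 UMIs per library until 60 days, held 3.94, 6.74, 7.42 and 15.2 CPM, and from 30 days on the Leydig-like interval includes the T or NK-like level of the same library. With each cell thinned to 1500 UMIs, 23.6% of the Leydig-like cells had a KIT UMI at 7 days, against 0.932%, 2.44% and 2.72% later and 0.309% of the Sertoli-like cells at 7 days, at unthinned medians of 9627.5 and 5609 UMIs. Unthinned, 73.2% of the Leydig-like and 1.21% of the Sertoli-like cells at 7 days had a KIT UMI. Leydig marker RNA was nearly as high at 30 days (68800 CPM) as at 7 days (71300 CPM) and lower at 60 and 90 days (15900 and 34500 CPM). At 7 days the Leydig-like level of KIT was 2.05-fold that of spermatogonia-like cells (1.87 to 2.25).

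Blood endothelial-like cells held the highest KIT level of the larger classes at 7 days. Their KIT stood at 236 CPM at 7 days (701 UMIs, 219 to 254), 87.8 CPM at 30 days (76.0 to 101), 83.4 CPM at 60 days (63.5 to 108) and 45.4 CPM at 90 days (121 UMIs, 37.7 to 54.3). The 7-day value is the high one, the 30-day and 60-day intervals overlap, and the 90-day value is the low one, 5.19 times below 7 days (4.28 to 6.35). Lymphatic endothelial-like cells did not share the level: they held 15.7 CPM at 7 days and 0 to 3.38 CPM later. Mast-like cells, which depend on KIT in mammals, were few (47, 8 and 12 cells at 30, 60 and 90 days) and held 1150, 2360 and 1920 CPM.

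Stromal-like cells held 14.8, 1.65, 1.25 and 10.2 CPM of KIT. The 7-day value coincided with 1150 CPM of Leydig marker RNA in the same class, against 176 to 588 CPM later, and the 90-day value with 3370 CPM of spermatid marker RNA, against 25.5 to 31.8 CPM earlier; the part of either in the KIT level was not tested. Sertoli-like cells held 1.97, 1.34, 3.41 and 4.2 CPM, myoid-like cells 3.12, 5.19 and 7.48 CPM at 30, 60 and 90 days, and pericyte-like cells 0 to 8.67 CPM. Macrophage or monocyte-like cells had 14, 1, 5 and 9 KIT UMIs, the last at 26.2 CPM (12 to 49.8) in 122 cells. Of the KIT UMIs, Leydig-like, spermatogonia-like and endothelial-like cells gave 32.7%, 32.2% and 24.0% at 7 days, whereas spermatogonia-like cells gave 61.3% at 30 days and the 2 spermatogonial classes together gave most of them at 90 days (31.4% and 48.7%).

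GFRA1, the co-receptor that binds GDNF, was highest in spermatogonia-like and pericyte-like cells in the younger libraries and in stromal-like and pericyte-like cells at 90 days, when its germ cell level was lowest. In spermatogonia-like cells it stood at 29.2 CPM at 7 days (311 UMIs, 26.1 to 32.6), 25.3 CPM at 30 days (301 UMIs, 22.5 to 28.3), 15.4 CPM at 60 days (36 UMIs, 10.8 to 21.3) and 5.41 CPM at 90 days (42 UMIs, 3.90 to 7.31). The 7-day and 30-day intervals overlap, the 60-day interval lies below both, and the 90-day interval lies below all. GFRA1 was 5.40 times lower at 90 than at 7 days (3.90 to 7.64), a log2 ratio of -2.43 (-2.93 to -1.97). In cells without a UMI of the division genes TOP2A and CDK1 this log2 ratio was -1.56, and with spermatogonia-like and differentiating cells pooled it was -3.42. The clusters that held 299 and 236 of the 539 spermatogonia-like cells at 7 days held 12 and 24 germ cells at 90 days. The spermatogonia-like classes of these libraries may therefore not hold the same cells, which was not tested. This limit applies to every spermatogonia-like ratio of 90 to 7 days.

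Outside the germ line GFRA1 went the other way in stromal-like cells. Stromal-like cells held 4.85 CPM at 7 days (62 UMIs, 3.72 to 6.21), 10.0 CPM at 30 days (7.79 to 12.8), 11.6 CPM at 60 days (8.16 to 16.0) and 17.3 CPM at 90 days (81 UMIs, 13.7 to 21.5). The 7-day value is the lowest and the 90-day value, 3.57-fold higher (2.53 to 5.05), the highest. Spermatid marker RNA in this class was 3370 CPM at 90 days and 25.5 to 31.8 CPM earlier. At 90 days spermatid-like cells had 0 GFRA1 UMIs and spermatogonia-like cells 5.41 CPM. The part of germ cell RNA in the stromal-like GFRA1 level was not tested. The stromal-like log2 ratio of 90 to 7 days, 1.84, lay between 1.41 and 1.97 in 12 other settings, which included subtraction of 10% free RNA. Pericyte-like cells held 26, 61.5, 20.1 and 16.5 CPM, with 18, 31, 3 and 20 UMIs. Their level did not differ from that of spermatogonia-like cells beyond counting error at 7 days (0.891, 0.521 to 1.43) and was 2.43-fold higher at 30 days (1.62 to 3.52) and 3.05-fold higher at 90 days (1.7 to 5.31). Sertoli-like cells, with 0.182 to 0.243 CPM, had nearly no GFRA1. Blood endothelial-like cells held 1.01, 2.66, 11.3 and 3.38 CPM from 3 to 9 UMIs, myoid-like cells 5.95, 2.96 and 2.04 CPM at 30, 60 and 90 days, and Leydig-like cells 0.379 to 2.74 CPM. The share of GFRA1 UMIs from spermatogonia-like cells was 75.3%, 65.2%, 24.0% and 24.7% at the 4 ages. Unnamed cells gave 34.0% at 60 days, the most of any class, when spermatogonia-like cells were 2.0% of the cells kept, and stromal-like cells gave 47.6% at 90 days.

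RET, the receptor tyrosine kinase that GDNF and GFRA1 activate, was highest in spermatogonia-like cells in every library. Its level there was 32.2 CPM at 7 days (343 UMIs, 28.9 to 35.8), 38.6 CPM at 30 days (35.1 to 42.3), 37.1 CPM at 60 days (29.8 to 45.8) and 23.2 CPM at 90 days (180 UMIs, 19.9 to 26.8). The 30-day level was 1.20-fold that of 7 days (1.04 to 1.38), and the 90-day value is the lowest of the 4, with a log2 ratio to 7 days of -0.47 (-0.74 to -0.21). This ratio did not keep its direction: it was 0.32 in cells without a UMI of TOP2A or CDK1 and 0.03 when single cells were gated by their own markers instead of by cluster. At 90 days RET in spermatogonia-like cells was 2.36-fold that of lymphatic endothelial-like cells (1.06 to 6.52), the next class, which held 1.74, 12.2, 6.76 and 9.81 CPM from 1 to 6 UMIs.

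Sertoli-like cells held RET UMIs in the 3 younger libraries, at 2.42 CPM at 7 days (112 UMIs, 1.99 to 2.91), 4.11 CPM at 30 days (113 UMIs, 3.38 to 4.94) and 2.62 CPM at 60 days (43 UMIs, 1.89 to 3.53), and 0.280 CPM at 90 days (4 UMIs, 0.0763 to 0.717). The 90-day value is the low one, 8.65 times below 7 days (3.29 to 32.3). At 7 days spermatogonia-like cells had 343 RET and 311 GFRA1 UMIs, and Sertoli-like cells had 112 and 10. The part of free RNA in the Sertoli-like RET level was not tested. Of the Sertoli-like cells at 7 days, 1.55% had a RET UMI at a median depth of 5609 UMIs, against 0.517% of macrophage or monocyte-like cells, which should lack RET, at 6655.5 UMIs. Leydig-like cells held 0.379 to 2.74 CPM of RET, stromal-like cells 0.703 to 2.35 CPM, and blood endothelial-like cells 3.03 to 5.66 CPM from 4 to 11 UMIs.

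Within the germ line of the 90-day library, the GDNF receptors and KIT had different ranges. Differentiating spermatogonia-like cells were staged by markers such as STRA8 and REC8, and 4 of the 7 markers listed for this stage were measured. KIT in these cells was 102 CPM (1008 UMIs, 95.8 to 109), 1.22-fold that of spermatogonia-like cells (1.11 to 1.35). RET was 0.911 CPM in the differentiating cells against 23.2 CPM, a ratio of 0.0393 (0.0177 to 0.0763), and GFRA1 was 0.607 CPM against 5.41 CPM, a ratio of 0.112 (0.0390 to 0.265). KIT was then 11.7 CPM in spermatocyte-like cells, 0.115 of the differentiating level (0.0849 to 0.151), and 11.9 CPM in spermatid-like cells, levels at or below that of T or NK-like cells of the same library (15.2 CPM). RET and GFRA1 had 4 and 2 UMIs in 1224 spermatocyte-like cells, and 1 and 0 UMIs in 662 spermatid-like cells. KITLG stood at 3.95, 6.97 and 12.8 CPM and GDNF at 3, 1 and 1 UMIs in the differentiating, spermatocyte-like and spermatid-like cells. At 60 days the 20 differentiating cells held 244 CPM of KIT (73 UMIs, 192 to 307) and 3 RET and 0 GFRA1 UMIs, and the 11 spermatocyte-like cells held 2 KIT UMIs.

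**Figure D3:**
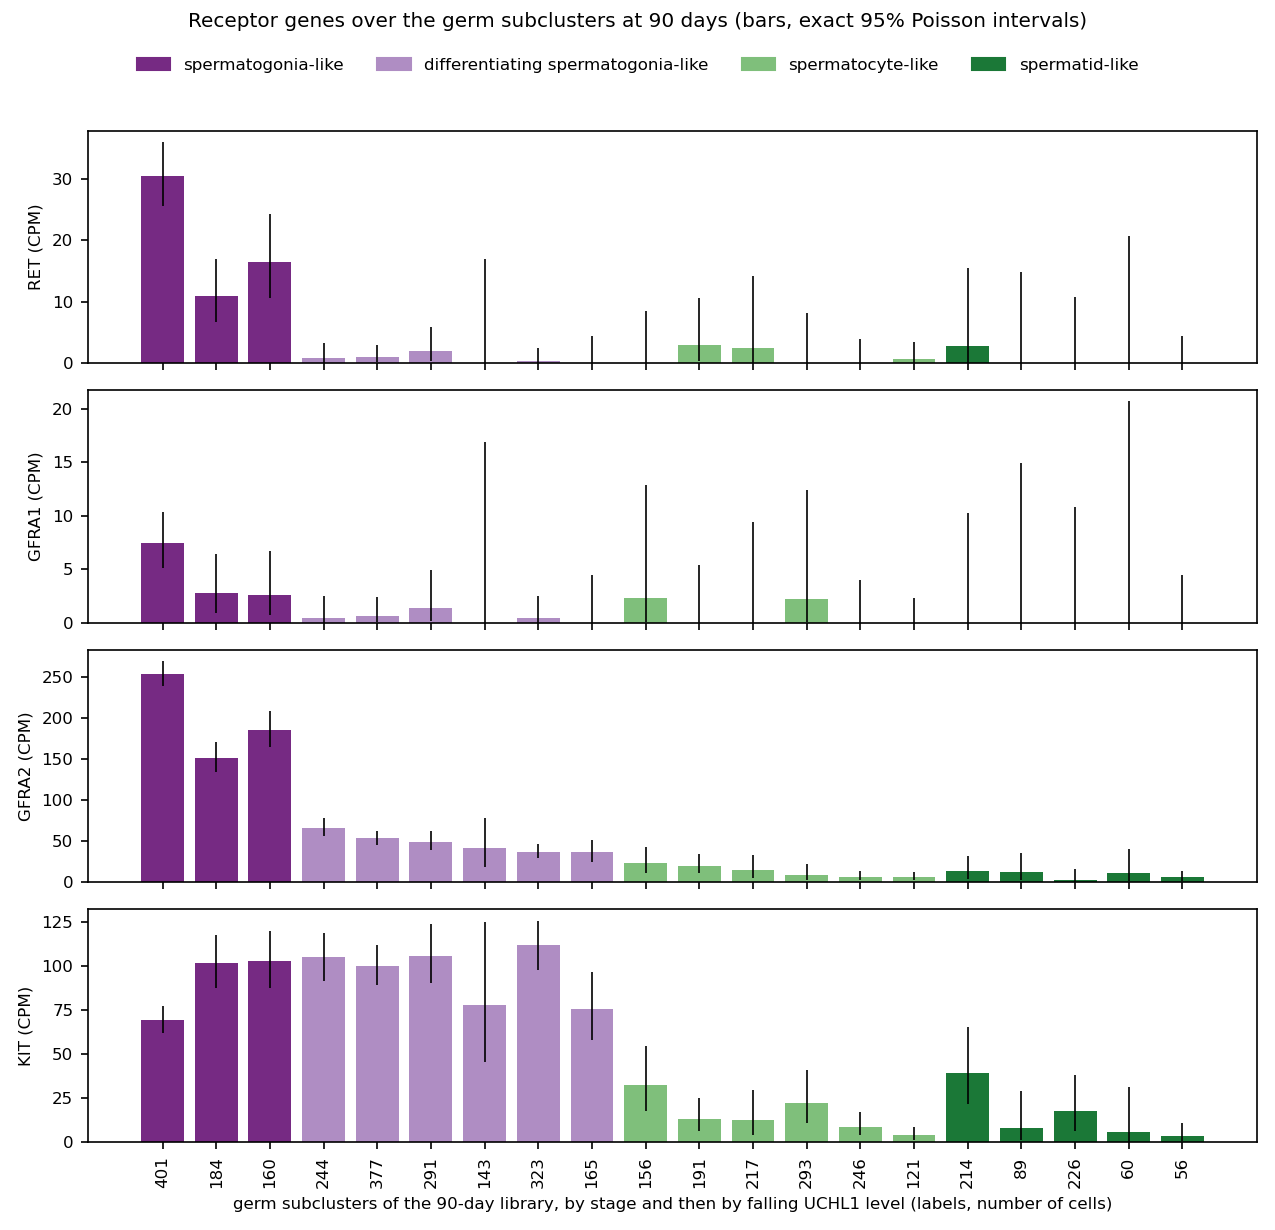
CPM of RET, GFRA1, GFRA2 and KIT in the 20 germ cell subclusters of the 90-day library, ordered by stage and then by UCHL1 level, with exact 95% Poisson intervals and the number of cells under each bar. RET, GFRA1 and GFRA2 are highest in the spermatogonia-like subclusters, and KIT stays between 69.4 and 112 CPM until the spermatocyte-like subclusters.

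Finer subclusters gave the same picture in steps. The largest spermatogonia-like subcluster, with 401 cells, had the most RET (30.4 CPM, 25.5 to 36.0) and GFRA1 (7.44 CPM, 5.12 to 10.4) and the least KIT of the 3 such subclusters (69.4 CPM, 61.9 to 77.6). The other two, of 184 and 160 cells, held 11 and 16.5 CPM of RET, 2.76 and 2.64 CPM of GFRA1, and 102 and 103 CPM of KIT. In the 6 differentiating subclusters KIT ranged from 75.5 to 112 CPM and RET from 0 to 2.04 CPM. GFRA2, the co-receptor of the related ligand neurturin, which can also bind GDNF, had the same order over these 3 subclusters as RET, with 253, 151 and 185 CPM in the spermatogonia-like ones and 36.5 to 66.7 CPM in the differentiating ones. KIT, RET and GFRA1 were left out when the subclusters were formed and staged, whereas GFRA2 was not left out of the clustering. The stage marker STRA8 stood at 46.5, 151 and 36.7 CPM in the differentiating subclusters of 323, 165 and 143 cells. In those of 377, 291 and 244 cells it stood at 5.69, 10.2 and 10.5 CPM, against 5.52 to 11.9 CPM in the spermatogonia-like ones.

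Between single spermatogonia-like cells, KIT was lower in those with a RET UMI at 60 and 90 days. At 90 days these are the same cells as in the subclusters above, so the 2 observations are not independent. The 128 spermatogonia-like cells with a RET UMI at 90 days held 24.8 CPM of KIT, against 97.5 CPM in the 617 cells without, a ratio of 0.255 (0.178 to 0.355). The same ratio was 0.889 at 7 days (0.780 to 1.01), 0.886 at 30 days (0.752 to 1.04) and 0.519 at 60 days (0.361 to 0.733). The 7-day and 30-day intervals include 1, whereas the 60-day and 90-day ones do not, and the difference between ages was not tested. Cells with a GFRA1 UMI held more RET at 90 days, 45.1 CPM against 21.8 CPM (2.07-fold, 1.25 to 3.28), and at 7 days, 37.5 CPM against 27.4 CPM (1.37-fold, 1.10 to 1.71), but not beyond counting error at 30 days (1.02, 0.833 to 1.25). KIT in cells with a GFRA1 UMI was 1.26-fold that in cells without one at 7 days (1.11 to 1.44) and 1.0-fold at 90 days (0.706 to 1.39). After thinning to 1500 UMIs, 27 of 537 cells at 7 days had a GFRA1 UMI, 61 had a KIT UMI and 3 had both (0.559%, 0.115 to 1.62). Both were found in 2 of 978, 0 of 199 and 0 of 743 cells at 30, 60 and 90 days. At 5000 UMIs these shares were 5.08%, 1.94%, 2.26% and 0.572%, so they depend on depth, and with each gene seen in so few cells they do not show whether the genes avoid each other.

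KIT was higher in the spermatogonia-like cells with RNA of division genes. At 90 days, 66.2% of the spermatogonia-like cells had a UMI of TOP2A or CDK1, genes of DNA replication and mitosis, and these held 109 CPM of KIT against 23.2 CPM in the others (4.68-fold, 3.53 to 6.32). RET was lower in the cells with such a UMI, at 15.7 against 41.2 CPM (0.381, 0.281 to 0.516), and so was GFRA1, at 4.01 against 8.77 CPM (0.458, 0.238 to 0.884). At 7 days KIT was also higher in cells with a division UMI (112 against 62.3 CPM, 1.80-fold, 1.57 to 2.07), whereas RET did not differ beyond counting error (0.960, 0.773 to 1.19). At 30 days the KIT ratio was 1.25 (1.06 to 1.47) and at 60 days 1.24 (0.898 to 1.69). The share of spermatogonia-like cells with a division UMI was 43.6%, 28.0%, 26.4% and 66.2% at the 4 ages, so the cells compared between ages were not alike in this respect. Deeper cells have more chances of any UMI, and this split was not thinned.

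The young spermatogonia-like cells fell into 2 clusters, 1 rich in PIWIL4, a piRNA-pathway gene of early germ cells, and 1 rich in ETV5, a transcription factor that responds to GDNF in rodents. The PIWIL4-rich cluster held the larger share of the germ cell GDNF: 6.32 against 1.57 CPM at 7 days (4.02-fold, 1.89 to 9.31) and 5.26 against 1.71 CPM at 30 days (3.07-fold, 1.48 to 6.64). Its KITLG was also higher, 11.7 against 5.03 CPM at 7 days (2.33-fold, 1.46 to 3.75) and 11 against 4.34 CPM at 30 days (2.53-fold, 1.58 to 4.09). Both ligands thus stood higher in the PIWIL4-rich cells in both libraries, and at 60 days, the intervals of both ratios include 1. The receptors of GDNF stood lower in them: RET had a ratio of 0.604 (0.474 to 0.766), 0.715 (0.578 to 0.879) and 0.507 (0.305 to 0.818) at 7, 30 and 60 days. GFRA1 had ratios of 0.616 (0.477 to 0.790), 0.751 (0.579 to 0.967) and 0.898 (0.431 to 1.83), the last within counting error. KIT was lower in the PIWIL4-rich cells at 7 days (73.7 against 98 CPM) and higher at 30 days (75.5 against 41.2 CPM, 1.83-fold, 1.56 to 2.15) and 60 days (107 against 53.2 CPM, 2.01-fold, 1.46 to 2.79). TOP2A was lower in the PIWIL4-rich cells at 7, 30 and 60 days (32.5 against 192 CPM, 25.6 against 156 CPM and 14.4 against 28.6 CPM), and its part in the KIT and GFRA1 ratios was not tested. The 2 clusters were set side by side after their values were seen.

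**Figure D4:**
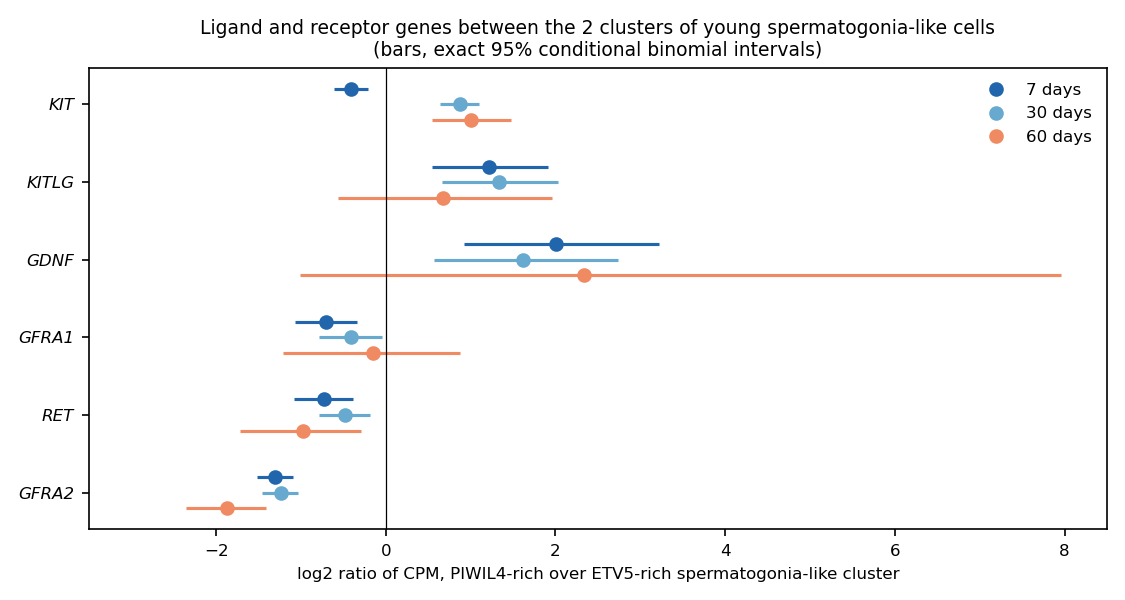
Log2 ratio of CPM between the PIWIL4-rich and the ETV5-rich cluster of spermatogonia-like cells at 7, 30 and 60 days for the 5 genes and GFRA2, with exact 95% intervals. The ligands GDNF and KITLG lie to the right of 0 at each age (at 60 days with intervals that include 0), RET, GFRA1 and GFRA2 to the left, and KIT on the left at 7 days and on the right at 30 and 60 days.

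Ratios past 2 times were common over all genes. Counting a gene as past 2 times when its ratio of 90 to 7 days was at least 2 in either direction with an interval that leaves out 1, 44.4% of the 19729 genes with at least 10 UMIs in Sertoli-like cells did so (33.5% higher and 10.8% lower). Of the 5 genes, KITLG and KIT were higher and GDNF and RET lower. With TMM factors the log2 ratios of KITLG and KIT were 0.75 and 0.67, both under 2 times, and the Sertoli-like KIT level at 90 days (4.2 CPM) lay below that of T or NK-like cells (15.2 CPM). In spermatogonia-like cells 39.0% of 21040 genes were past 2 times (10.7% higher and 28.3% lower), and of the 5 genes none was higher and KITLG, GDNF and GFRA1 were lower. Between differentiating and spermatogonia-like cells at 90 days the share was 16.4% of 18367 genes (4.97% higher and 11.4% lower), with RET and GFRA1 lower and KIT not past 2 times among the 4 of the 5 genes that had enough UMIs. The median log2 ratio of all genes was 0.47 in Sertoli-like cells, -0.31 in spermatogonia-like cells and -0.01 between the germ cell classes. Over all genes with at least 1 UMI the shares were lower, at 37.1% in Sertoli-like cells (28.7% higher and 8.31% lower), 30.8% in spermatogonia-like cells (8.54% and 22.3%) and 12.7% between the germ cell classes (3.72% and 8.93%). TMM factors shifted every log2 ratio of 90 to 7 days by -0.43 in Sertoli-like and 0.30 in spermatogonia-like cells.

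**Figure D5:**
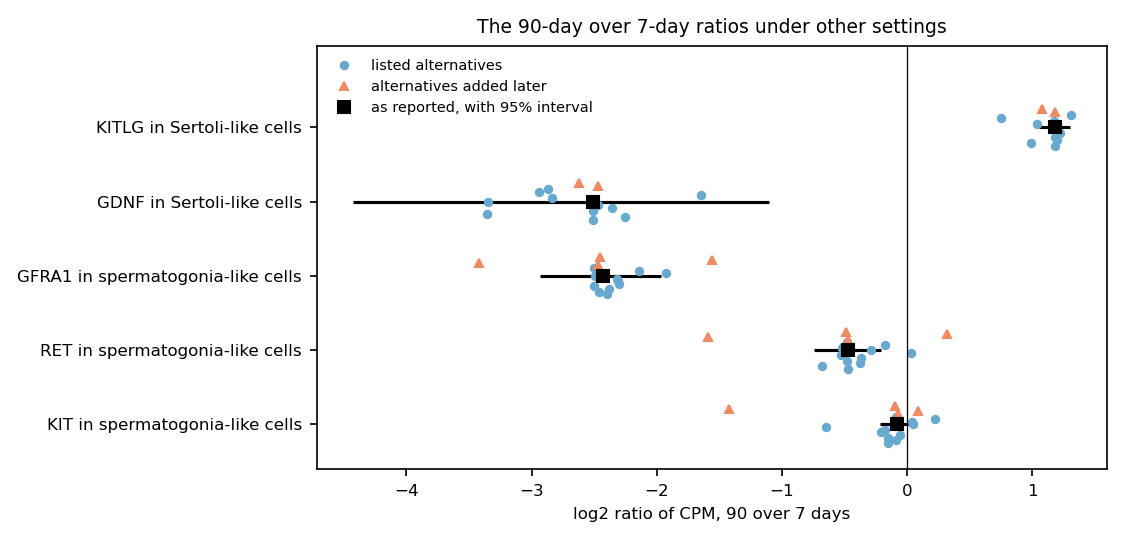
Log2 ratio of CPM at 90 over 7 days for 5 gene and class pairs, as reported (squares with exact 95% intervals), under the listed alternatives (circles) and under those added later (triangles). KITLG and GDNF in Sertoli-like cells and GFRA1 in spermatogonia-like cells keep their direction, while RET and KIT in spermatogonia-like cells have settings on both sides of 0.

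Other ligands and co-receptors of the GDNF family were measured where they could be. GFRA2 in spermatogonia-like cells stood at 104 CPM at 7 days, 105 CPM at 30 days, 120 CPM at 60 days and 216 CPM at 90 days, the last 2.09-fold the first (1.93 to 2.25), the direction opposite to GFRA1 in the same cells. Its log2 ratio of 1.06 ranged from 0.25, with differentiating cells pooled in, to 1.69, in cells without a UMI of TOP2A or CDK1. Neurturin (NRTN), the ligand of GFRA2, stood at 83.8, 88.2, 70.9 and 19.5 CPM in Sertoli-like cells, 4.29 times lower at 90 than at 7 days. Of the 6 genes of this list with enough UMIs in Sertoli-like cells 1 was higher and 1 lower (median -0.19), beside 33.5% and 10.8% of all genes (median 0.47). Of 7 in spermatogonia-like cells 2 were higher and 2 lower (median -0.57), beside 10.7% and 28.3% of all genes (median -0.31). ARTN had 3 UMIs or fewer in these comparisons and PSPN had 0.

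Of the genes that regulate Gdnf in rodent Sertoli cells, 4 of 10 were past 2 times higher and 1 lower at 90 than at 7 days in Sertoli-like cells, close to the shares over all genes (33.5% and 10.8%). The Notch receptor NOTCH1 stood at 22.1 against 8.86 CPM and its target HES1 at 243 against 44.5 CPM, whereas HEY1, another Notch target, stood at 2.80 against 21.5 CPM. The receptor of follicle-stimulating hormone, FSHR, stood at 43.0 against 56.8 CPM, not past 2 times. The list median was 0.29, below the 0.47 of all genes. Among 16 other niche factors 1 was higher and 8 were lower, with a median of -1.03, beside the same shares over all genes. WNT6 stood at 1.61 against 52.6 CPM, INHBA, a subunit of activin, at 108 against 269 CPM, and CYP26B1, which breaks down retinoic acid, at 3.64 against 20.1 CPM. WNT6 had 15.3 CPM at 30 days and 67.3 CPM at 60 days, so its high and low ages were those of GDNF in the same cells. Other genes of this list, at lower levels, had the same high and low ages. The share of all genes that do so was not counted, so the likeness is not particular to WNT6 and GDNF.

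Downstream of the receptors, 3 of the 26 RET and KIT adaptors and effectors were past 2 times higher in spermatogonia-like cells at 90 than at 7 days and 5 were lower, with a median of -0.13. The shares over all genes were 10.7% and 28.3%, around a median of -0.31, and all counts in this paragraph are to be read beside them. The docking protein gene GAB1 stood at 43.3 against 13.2 CPM, the adaptor GRB2 at 72.8 against 168 CPM and the kinase FYN at 14.8 against 41.4 CPM. Of 12 genes that respond to GDNF in rodent spermatogonia 0 were higher and 3 lower (median -0.62). ETV5 stood at 86.5 against 166 CPM, not past 2 times, and ID4, an inhibitor of differentiation, at 22.9 against 61.9 CPM. Among 16 undifferentiated spermatogonia genes 1 was higher and 8 lower (median -0.88), with NANOS3 at 66.7 against 26.4 CPM and PIWIL4, LIN28B and PAX7 at 7.73, 4.25 and 3.86 CPM against 80.8, 50.8 and 22.9 CPM. NANOS3, PIWIL4 and LIN28B, like ETV5 and ID4, were among the markers that staged the cells. Among 16 division genes 4 were higher and 0 lower (median 0.65), among them TOP2A at 374 against 128 CPM.

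Between differentiating and spermatogonia-like cells at 90 days, 0 of 10 GDNF-responsive genes were past 2 times higher and 6 were lower, with a median of -2.02 beside -0.01 over all genes, of which 4.97% were higher and 11.4% lower. The cyclin gene CCND2 stood at 9.82 against 127 CPM and the phosphatase gene DUSP6 at 3.64 against 29.5 CPM. ETV5 stood at 8.30 against 86.5 CPM, but ETV5 and ID4 were among the markers that staged the cells. Of the 26 adaptors 0 were higher and 12 lower (median -0.58), with the phosphatase PTPN11, which acts downstream of both receptors, at 25.5 against 105 CPM and STAT5B at 13.3 against 39.9 CPM. Among 9 differentiating spermatogonia genes 4 were higher and 0 lower (median 0.93), some of them stage markers too. Between 90 and 7 days in spermatogonia-like cells 2 of 9 were higher and 2 lower (median 0.39), beside 10.7% and 28.3% of all genes (median -0.31).

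Over the 43 combinations of class and age with at least 50 cells, the genes most like each of the 5 were ranked by Pearson's r of log2(CPM + 1) among 11684 named genes. These points share libraries and cell types, and the values are a description. Most like KITLG were SORBS2 (r = 0.868), HMCN1, PTGIS, TSC22D1 and ADGRL2. For GDNF they were ACTA2 (0.790), LMOD1, ACTG2, SEPTIN8 and COL4A6. For KIT they were CHRM2 (0.763), MECOM, JAG2, TMEM183A and ZNF366. The genes nearest to GFRA1 were NSG1 (0.917), PDE3A, LRRC4C, CPE and PRRX1, and those nearest to RET were CDCA7L (0.815), DUSP22, UBE2E1, DBX2 and TFDP2. Among the 5 genes themselves, GDNF and GFRA1 had r = 0.595, KIT and KITLG -0.118, and GFRA1 and RET 0.241.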

How the data were processed

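Single-cell libraries of pig testis, 1 per age, were analysed from the deposited matrices of raw UMI counts per gene and barcode. Per the file headers the counts came from Cell Ranger 5.0.1, with bcl2fastq, Scanpy 1.7.1 and the build Sscrofa11.1 also listed per the submitters' processing notes; no normalized values were used. The stage at which the authors filtered barcodes is not given in the sources used here.

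The libraries held 15896, 19373, 16839 and 17494 barcodes at 7, 30, 60 and 90 days, with 96133720, 77992845, 45717373 and 64372068 UMIs. Cells with at least 1000 UMIs and 500 genes and at most 15% mitochondrial UMIs were kept. Scrublet doublet calls were removed up to the expected 0.8% per 1000 barcodes, which took out 774, 1781, 1615 and 862 cells; at 60 days the automatic threshold had called 3459. Counts per cell were scaled to 10000 and log-transformed, and 2000 variable genes, 30 principal components, 15 neighbours and Leiden clustering at resolution 1 gave clusters that were named from marker sets, without KIT, KITLG, GDNF, GFRA1 or RET. Germ cells were clustered again within each library at resolution 2 and staged by markers. Clusters below the scoring thresholds stayed unnamed.

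UMIs were summed per class and library and divided by the class total (CPM). Intervals at 95% were exact Poisson for levels, exact conditional binomial for ratios and Clopper-Pearson for shares. UMIs of 1 cell are not independent samples, so the intervals cover counting error only. They were run on simulated Poisson counts without variation between cells or libraries, which checks the calculation and not their fit to these data. With 1 library per age no test was made. A floor of 3 counts stood in for a count of 0 in ratios and is not an interval bound. Between libraries, genes with at least 10 counts entered the comparison across all genes. Alternatives changed the doublet calls, filters, clustering, scaling, depth and free RNA; edgeR 4.0.16 gave TMM factors only.

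Levels of the 5 genes were computed in every class, and some classes had no UMI of a gene. List genes are those that reached 20 CPM, at most the 4 with the largest change in each direction. A gene of the lists is counted but not reported by name here. ARTN and PSPN were named after their values were seen. The genes, lists and tests were chosen with earlier results of these data known. The thresholds for naming clusters, the split by TOP2A and CDK1, the comparison of the PIWIL4-rich and ETV5-rich clusters and the added alternatives were chosen after the data were seen. RefSeq entries were matched by symbol. Python 3.11.15, Scanpy 1.11.5, leidenalg 0.10.2, SciPy 1.17.1 and R 4.3.3 were used.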

Additional observations from a re-analysis of the deposited data

How the results depend on the processing

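Values here are log2 ratios of 90 over 7 days. KITLG in Sertoli-like cells, 1.18 as reported, was 0.99 with no doublets removed, 1.04 as a mean over cells, 0.75 with TMM factors and 1.31 after subtraction of 10% free RNA, and kept its direction in 13 of 13 settings. GDNF in Sertoli-like cells kept its direction in 13 of 13 settings, between -3.36 and -1.65. GFRA1 in spermatogonia-like cells, -2.43 as reported, was -1.93 with cells thinned to 1500 UMIs, and by settings chosen after seeing the data -3.42 together with differentiating cells and -1.56 in cells without a UMI of TOP2A or CDK1. RET in the same cells, -0.47 as reported, was 0.03 with the single-cell marker gate and 0.32 without TOP2A or CDK1 UMIs, both in the other direction, and -0.18 with TMM factors and -1.59 with differentiating cells. KIT, -0.08 as reported, was -0.65 with the gate, 0.22 with TMM factors, 0.09 with differentiating cells and -1.42 without TOP2A or CDK1 UMIs. The cause was not tested. Leaving out the spermatogonia-like subclusters led by Sertoli markers, also chosen after seeing the data, gave -2.45 for GFRA1, -0.49 for RET and -0.10 for KIT. The share of spermatogonia-like cells at 7 days with UMIs of both GFRA1 and KIT was 0.559% at 1500 and 5.08% at 5000 UMIs per cell. For the 28 other results, 320 of 362 values stayed within the reported interval and 42 did not, and 0 changed direction where the reported interval leaves out 0. KITLG in stromal-like cells, whose interval includes 0, lay between -0.39 and 1.32 and kept its direction in 9 of 12 settings, and KITLG in blood endothelial-like cells lay between 0.00 and 0.22 (10 of 12). Among the 28 results the alternation of GDNF in Sertoli-like cells held, with 60 over 30 days between 4.36 and 6.44. The gate named 37505 of 50766 cells, and 9025 cells lay within 1 log-likelihood unit of a cut. No replicate could be left out, since each age is 1 library, and no paired analysis was possible for the same reason. GDNF at 30 and 90 days in Sertoli-like cells rests on 3 and 4 UMIs, which limits those levels.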
